A study of Arabidopsis thaliana with 9 samples.

Results

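ECS1 (AT1G31580, on chromosome 1) encodes a cell-wall-associated protein of Arabidopsis thaliana, and its level is described here in rosettes of an F1 hybrid and of both its parents. It was found through the platform annotation, which gave 1 probe set for it, 256497_at, out of 22746 probe sets after the array's controls were set aside. The groups were the F1 hybrid (C24 x Col), the accession C24, and the accession Col (Col-0), each as whole rosettes at 15 days after sowing on agar plates, with 3 biological replicates and 1 one-colour Affymetrix array per replicate. The labels give no treatment, transgene or mutation for any of the 3 groups, and they do not say how many plants made up a sample. The cross is written with C24 first, the place that by convention is the seed parent's, but the labels do not state the seed parent outright. The values are MAS5 signals as deposited, which are linear, have no absolute unit and were scaled to a common mean on each array. Medians of the 9 arrays ran from 158.5 to 174.4, and log2 signals of replicates correlated at 0.977 to 0.983 across the probe sets tested.

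The plant cell wall is a network of cellulose, hemicellulose, pectin and structural proteins, and secreted wall proteins such as ECS1 are embedded in it. ECS1 was described in Arabidopsis in studies of the bacterial pathogen Xanthomonas campestris, where accessions differed in its transcript. In an F1 plant both parental alleles of a gene share 1 nucleus. If each allele were transcribed as in its parent, the F1 level would lie at the mean of the parents, which is called additive, and an F1 at the level of the higher parent is called dominant. A probe set of this kind gives 1 signal for both alleles, each read as far as its transcript binds the probes, and does not separate them.

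ECS1 was high in F1 and Col rosettes and low in C24 rosettes. Its signal was 21209, 22149 and 19111 on the 3 F1 arrays, 160.7, 157.3 and 123.3 on the 3 C24 arrays, and 21019, 19818 and 22459 on the 3 Col arrays. The F1 and Col arrays overlapped, and every C24 array lay far below all 6 of them. The means were 20823 ± 1556 in F1, 147 ± 20.7 in C24 and 21099 ± 1322 in Col (SD, n = 3 arrays each). ECS1 was chosen for this pattern, so its levels and differences are a description and carry no test.

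**Figure D1:**
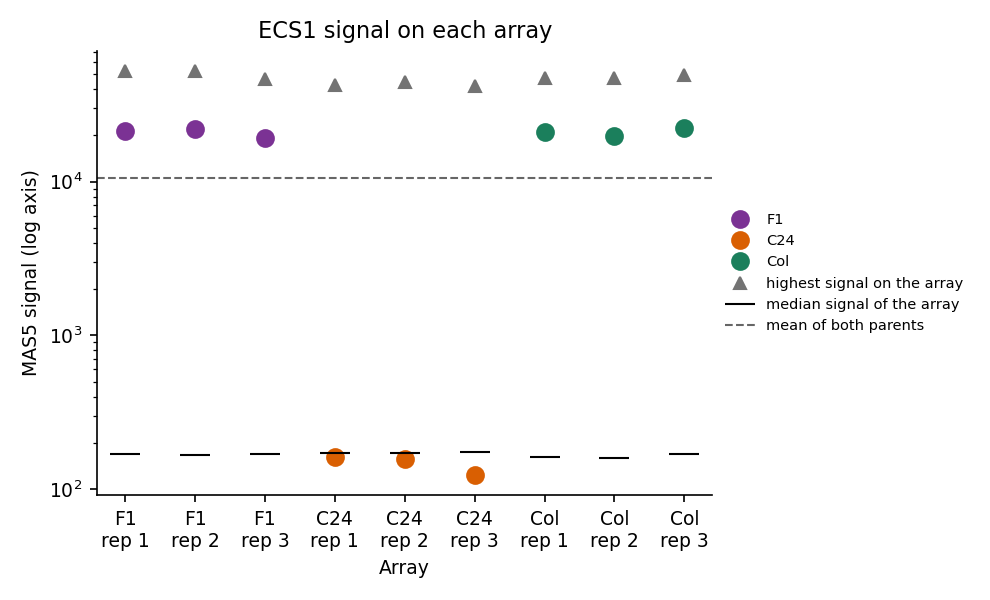
ECS1 signal (MAS5, log axis) on each of the 9 arrays, with the highest signal and the median signal of the same array and a dashed line at the mean of both parents. The F1 arrays (19111 to 22149) lie with the Col arrays (19818 to 22459) and above the parental mean of 10623, and the C24 arrays (123.3 to 160.7) lie below their array's median.

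The parental difference in ECS1 was -7.17 on the log2 scale in C24 against Col (SE 0.11 from the limma fit over all arrays), and Col stood 143-fold above C24 in mean signal. Counted from the most negative log2 difference of C24 against Col in the 13648 probe sets tested, ECS1 ranked 3. This rank leaves out probe sets higher in C24, some of which differed more, such as PDF1.2b at 10.27. In ECS1, F1 differed from C24 by 7.15 (SE 0.11) and from Col by -0.02 (SE 0.11). The F1 and C24 arrays did not overlap, as was so for 32.9% of the probe sets tested, nor did the C24 and Col arrays, as was so for 45% of them. The F1 and Col arrays of 29% of the probe sets did not overlap, and those of ECS1 did. The F1 mean was 98.7% of the Col mean, with single F1 arrays at 90.6% to 105% of it. In bulk rosettes a lower level in the cells that express ECS1 and fewer such cells cannot be told apart.

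Each F1 array was placed between the parents by its linear signal, with 0 at the Col mean, 0.5 at the additive point and 1 at the C24 mean. This position was -0.00525, -0.0501 and 0.0949 on the 3 F1 arrays, a mean of 0.0132 ± 0.0742 (SD, n = 3). The Col arrays, read on the same scale, lay at 0.0038, 0.0611 and -0.0649, so that the F1 arrays scattered over about the range of the Col arrays. All 3 F1 arrays were nearer to Col than to the additive point. F1 stood 0.97 above the mid-parent level on the log2 scale (SE 0.10), and single F1 arrays stood 1.80 to 2.09 times above the mid-parent signal of 10623. Placed by log2 signal, F1 lay at 0.00277, and an additive F1 would lie at 0.138.

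Other transcripts that were higher in Col were mostly nearer to additive. Among the 506 other probe sets at least 2-fold higher in Col than in C24 and past the limma threshold, the median position was 0.492, with quartiles of 0.38 and 0.619. Of these, 16 (3.16%) had a position at or below that of ECS1. The annotation named 16 other genes at least 16-fold higher in Col, and their positions ran from 0.232 for AT5G45500 to 0.77 for AT3G44970, with a median of 0.457. NAI2 and PYK10, which encode proteins of endoplasmic reticulum bodies, lay at 0.52 and 0.281, and UGT78D1, a flavonol glycosyltransferase gene, at 0.614. None of these 16 approached ECS1 in brightness. Their Col means ran from 383 to 2726, and 13 of them had a C24 mean below the filter signal of 89.9. These probe sets were selected on the same arrays, so the comparison has no test.

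The genes most like ECS1 across the arrays shared its low C24 level, which follows from choosing them by correlation with ECS1. Some also shared its Col-like F1 level, which the same choice favours. Likeness was the Pearson correlation of log2 signals over the 9 arrays, computed for 7353 other named probe sets, and it is given with no p because the 9 points fall into 3 groups. The 10 highest correlations ran from 0.984 to 0.997. AT2G32160 had an F1 position of 0.0111, with signals of 547.4, 690.5 and 427.3 in F1, 51.5, 54.3 and 44.3 in C24 and 579.8, 621.7 and 480.6 in Col. Its F1 and Col arrays overlapped and its C24 arrays lay below both. AT3G43540, AT2G43535, AT5G03130 and AT5G24870 followed at positions of 0.0559, 0.0863, 0.0865 and 0.113, with smaller parental log2 differences of -1.78, -2.40, -1.08 and -1.29. The other 5, AT5G45500, AT1G23960, PYK10, AT5G55790 and 2A6, lay at positions of 0.232 to 0.42. AT1G23960 had a parental log2 difference close to that of ECS1, -7.23. It stood at 508 ± 34.2 in F1, 5.55 ± 0.867 in C24 and 825 ± 68.6 in Col. Its C24 mean lay far below the filter signal of 89.9, and that of ECS1, 147, lay above it. The size of the difference in AT1G23960 thus rests on very low C24 signals.

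**Figure D2:**
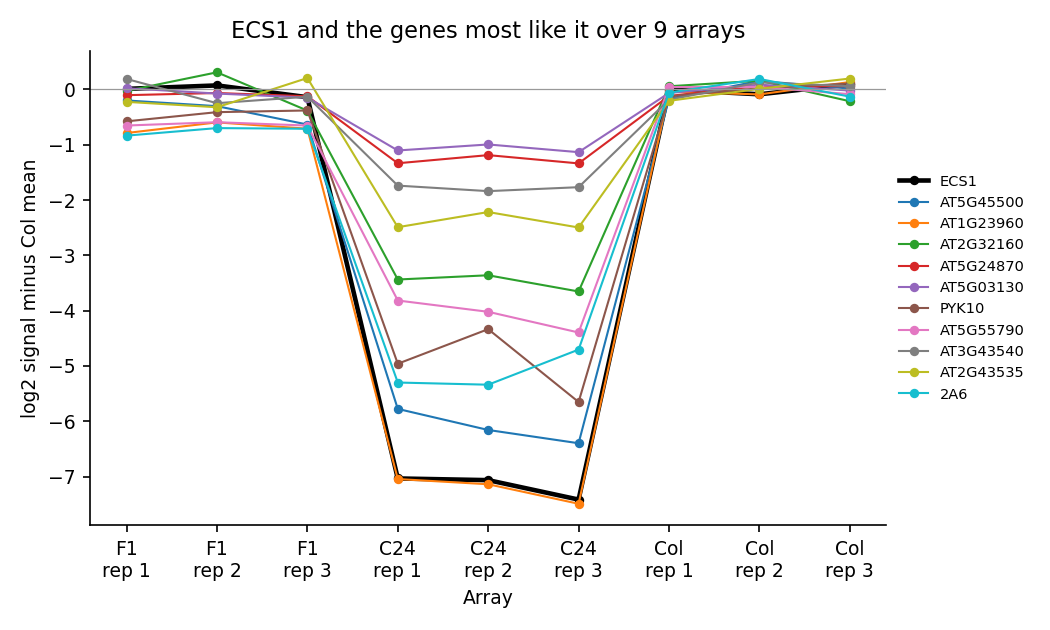
Log2 signal minus the Col mean, by array, for ECS1 (thick black line) and the 10 named genes whose signals correlate best with it over the 9 arrays. In ECS1 and AT2G32160 the F1 mean differs from the Col mean by -0.02 and -0.03, and in AT1G23960 by -0.70. AT1G23960 has a log2 difference of C24 from Col close to that of ECS1. Its C24 mean of 5.55 is below the filter signal of 89.9.

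Because an F1 signal equal to that of the higher parent can also be read from an array at its ceiling, the brightness of ECS1 was set against the other signals. On the F1 arrays 73, 65 and 82 probe sets, ECS1 included, were at or above its signal, and 69 to 79 were on the Col arrays. The highest signal of an array was 2.35 to 2.47 times that of ECS1 on the F1 arrays and 2.21 to 2.37 times on the Col arrays. These are signals of other probe sets, and whether the probes of ECS1 were near a ceiling of their own was not tested. In C24, 51.2% to 56.1% of the probe sets were at or above ECS1, which puts it just under the median of those arrays.

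Spiked control RNAs, which are added in rising amounts from bioB through bioC and bioD to cre, gave signals in that order. The bioB sets ran from 185 to 718, bioC from 1200 to 1904, bioD from 4703 to 9231 and cre from 13155 to 26116 over the 9 arrays. The cre 3′ set averaged 22806 ± 2242 in F1, 20659 ± 391 in C24 and 24567 ± 2118 in Col (SD, n = 3 each), close to ECS1 in F1 and Col. No source used here states the amounts added, so a slope at that brightness was not computed.

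Probe sets as bright as ECS1 in Col differed little between the parents. They were chosen by their Col mean, which leaves out sets bright only in C24 and favours sets lower in C24. An example left out, 263174_at, had means of 28668 in C24 and 979 in Col. Apart from ECS1, 70 probe sets tested had a Col mean at or above its own, and their log2 differences of C24 against Col ran from -0.51 to 0.20 with a median of -0.19, against a median of 0.03 over all probe sets tested. In limma 33 of them were lower in C24 and 0 higher, beside 15.2% lower and 15.7% higher of all probe sets. The 2 spiked cre sets also averaged lower in C24, at 0.84 (3′) and 0.88 (5′) of their Col means. The part of such a shift of bright signals in these 33 calls was not tested. The most different was LHCB4.2, which encodes an antenna protein of photosystem II, with 28706 ± 522 in F1, 21505 ± 892 in C24 and 30716 ± 1643 in Col (-0.51, adjusted p = 2.30e-05 for C24 against Col). In F1 against Col the 70 ran from -0.35 to 0.20, with 5 lower and 0 higher, beside 5.08% and 6.37% of all probe sets. For ECS1 the SD of log2 signals within F1 and Col was 0.10, and for the 70 it had a median of 0.0853 and a range of 0.0259 to 0.306. By brightness of Col, the spread between the 5th and 95th percentile of parental log2 differences was -1.02 to 0.54 from 1000 to 5000, -0.77 to 0.25 from 10000 to 20000 and -0.41 to -0.04 above 20000.

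To set ECS1 beside bright transcripts that differ between the parents in either direction, F1 was placed on a scale from the lower parent (0) to the higher parent (1), where ECS1 lies at 0.987. These probe sets and brightness limits were chosen after the values were seen. Between 10000 and 20000 in the higher parent there were 9 probe sets, with shares of 0.265 to 0.880 and a median of 0.617. Among them CP5 had 10203 ± 232 in F1, 6687 ± 837 in C24 and 16258 ± 1162 in Col, a share of 0.367. AT2G41090, which is higher in C24, had 8599 ± 1976 in F1, 18355 ± 1400 in C24 and 5080 ± 741 in Col, a share of 0.265. Nearest to ECS1 in pattern was 257008_at, which the annotation does not name, with 17030, 11908 and 14236 in F1, 1727, 1876 and 2230 in C24 and 16170, 17572 and 14545 in Col, a share of 0.880. Its F1 and Col arrays overlapped, at signals below those of ECS1.

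Above 20000 there were 3 others, all higher in C24, and their shares were 0.770, 0.787 and 0.846. Probe set 263174_at, which the annotation does not name, stood at 23772, 25159 and 24257 in F1, 29485, 29764 and 26756 in C24 and 985, 831 and 1120 in Col. Its F1 arrays lay below all C24 arrays, at brightness above ECS1. AT2G25510 stood at 27276 ± 6670 in F1, 30986 ± 2292 in C24 and 14863 ± 457 in Col. Below 10000 the medians of the brightness classes lay between 0.420 and 0.501. Split by the higher parent, these medians were 0.469 to 0.569 for sets higher in Col and 0.314 to 0.458 for sets higher in C24. From 10000 to 20000 the median was 0.511 over 6 sets higher in Col and 0.617 over 3 higher in C24. With 4 probe sets above 20000, ECS1 included, all on the side of the higher parent, the part of saturation in the F1 position of ECS1 was not tested, and signals of single probes are not used here.

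**Figure D3:**
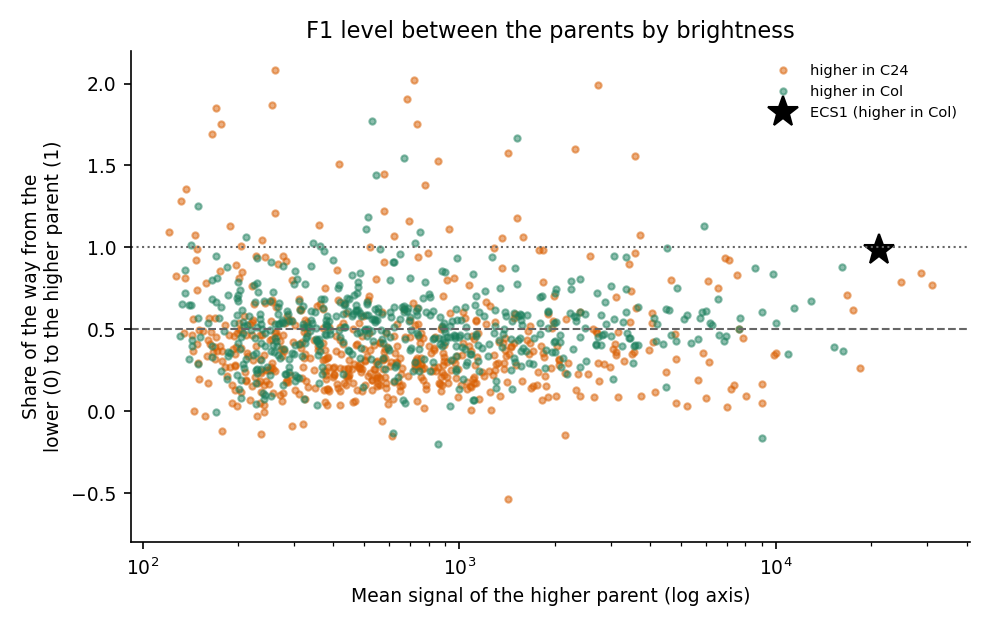
F1 level as a share of the way from the lower (0) to the higher parent (1) against the mean signal of the higher parent (log axis), for 1076 probe sets with a parental difference of 2-fold or more that passed limma's threshold; 6 with shares above 2.2 lie outside the axis. The dashed line is additive, the dotted line is the higher parent, ECS1 (star) lies at 0.987, and the 3 others above 20000 lie at 0.770 to 0.846.

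The C24 signal of ECS1 depends on how well the C24 transcript binds probes, and the sequences of the probes and of the C24 allele are not used here. With 1 probe set for the gene, a lower amount of transcript in C24 and a C24 transcript that binds these probes less well cannot be told apart. The part of probe mismatch in the F1 position was not tested.

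The array's own actin controls showed how far probe sets for different parts of related transcripts can part between these accessions. The first 3′ actin set gave 11025, 10054 and 9295 in F1, 4337, 3954 and 3464 in C24 and 14752, 13661 and 14327 in Col, with no overlap between the groups. Col was 3.64-fold above C24 in this set and 4.97-fold in the second 3′ set, against 1.61-fold and 1.23-fold in the middle sets and 1.02-fold and 1.05-fold in the 5′ sets. The F1 position was 0.399 and 0.366 in the 3′ actin sets. The GAPDH and ubiquitin controls parted less. Col over C24 was 0.97 in the 3′ and 1.03 in the 5′ GAPDH set, and 1.19 and 1.00 in the ubiquitin sets. Most of these control sets carry suffixes of sets that can bind several transcripts, and the controls were not part of the limma fit.

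The 37 named genes with several tested probe sets had parental log2 differences that spanned a median of 0.30 within a gene, and the span was over 1 in 1 of them. That gene, AT2G30600, gave -1.10 (adjusted p = 0.000224 in limma) with one set and -0.01 (adjusted p = 0.982) with the other for C24 against Col. It is among the 3 genes with a set at least 2-fold lower in C24, of which 0 had all their sets so. The others were AT5G24690, with -1.27 (adjusted p = 8.30e-08) and -0.44 (adjusted p = 0.0393), and AT2G03390, with -1.15 (adjusted p = 1.19e-06) and -0.59 (adjusted p = 0.0178). In these 3 genes the span was 0.57 to 1.09, above the median of 0.30, but choosing them by a large difference in a set favours a wide span. In each, the set with the smaller difference was the dimmer. Its Col mean was 196 against 1203, 321 against 3275 and 352 against 2801, in the order above. Among genes with a set at least 2-fold higher in C24, AT2G31110 gave 1.15 and 1.21 and AT3G48570 gave 1.15 and 0.74.

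**Figure D4:**
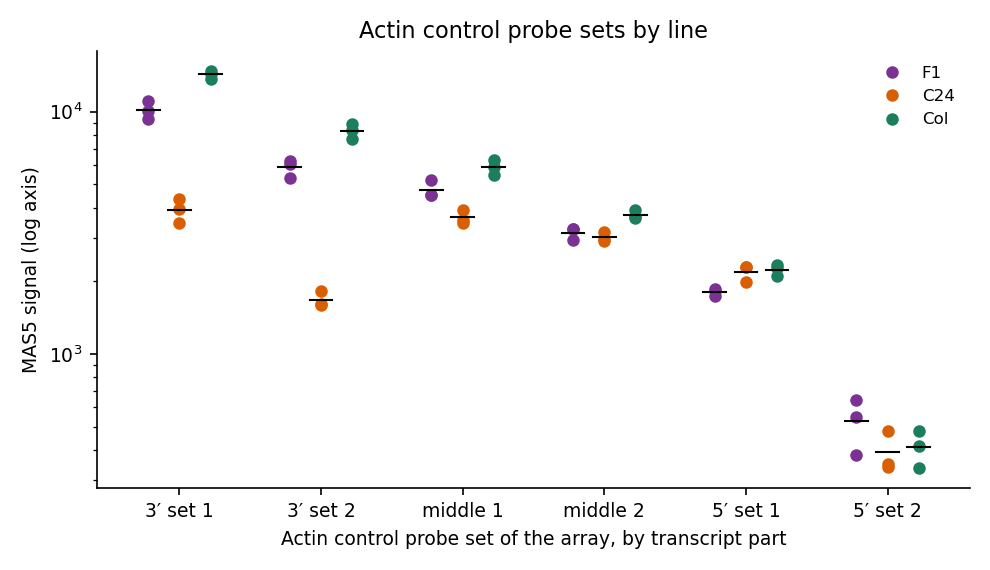
MAS5 signals (log axis) of the 6 actin control probe sets on the 9 arrays, grouped by the part of the transcript they read; points are arrays and lines are group means (n = 3). The C24 arrays lie below the F1 and Col arrays in both 3′ sets, where Col is 3.64-fold and 4.97-fold above C24, and not in the 5′ sets.

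Of the 5 nearest genes on either side with a probe set naming 1 gene, 10 in all, 2 passed the filter on low signals, and the 9 probe sets that did not had group means of 1.97 to 62.6. Counted in genes from ECS1, the 10 lay at -9 to -5 and at 2 to 8, so none was next to it. The 2 tested, AT1G31550 and AT1G31690, lay at -5 and 8. Both tested neighbours were higher in C24 than in Col in limma, where 30.9% of all probe sets were called, 15.7% higher and 15.2% lower. The other 8 neighbours were not tested. Nor was a second probe set of the tested neighbour AT1G31690, with means of 45.2 in F1, 62.6 in C24 and 42.3 in Col. AT1G31550 stood at 959.6, 624.7 and 659.4 in F1, 1228, 883 and 801 in C24 and 700, 533 and 673 in Col (log2 difference of C24 against Col 0.60, SE 0.18, adjusted p = 0.0208), so that all C24 arrays lay above the Col arrays. It no longer passed without C24 replicate 1 (adjusted p = 0.111), without Col replicate 2 (adjusted p = 0.105) or without an intensity trend (adjusted p = 0.0582). AT1G31690, an amine oxidase gene, stood at 862 ± 198 in F1, 877 ± 98.3 in C24 and 578 ± 124 in Col (0.62, adjusted p = 0.0120), and it no longer passed without Col replicate 1 (adjusted p = 0.0608) or Col replicate 2 (adjusted p = 0.0509).

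Further out the directions were mixed. Taking the 5 nearest genes on either side that passed the filter, a choice made after seeing the data, 6 of 10 were called, 2 higher and 4 lower in C24, with a median log2 difference of -0.15. That is 60% called, beside 30.9% of all probe sets (15.7% higher and 15.2% lower), over 10 genes. The lowest was AT1G31440, 17 genes away, at 596.2, 594.5 and 534.4 in F1, 272.7, 267.3 and 242.0 in C24 and 840.7, 649.4 and 856.0 in Col (-1.58, SE 0.13, adjusted p = 2.81e-07). Its F1 arrays lay between the parents without overlap, at a position of 0.397. AT1G31335 (-0.92, adjusted p = 0.000766), AT1G31710 (-0.88, adjusted p = 0.000392) and AT1G31780 (-0.53, adjusted p = 0.0139) were also lower in C24. AT1G31780 no longer passed without C24 replicate 1 (adjusted p = 0.0680) or without Col replicate 3 (adjusted p = 0.0703).

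**Figure D5:**
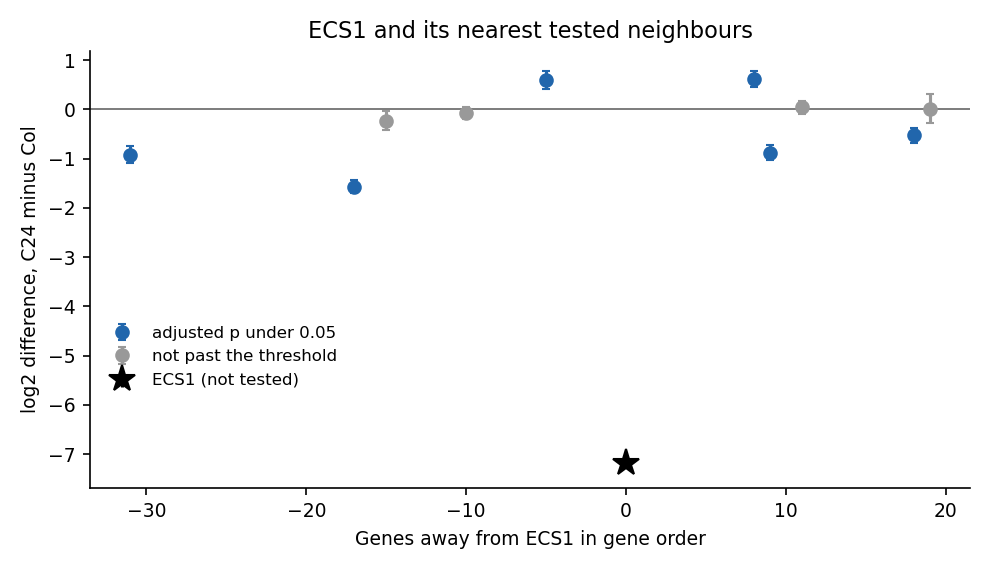
Log2 difference of C24 against Col (± SE from limma) for ECS1 (star, not tested) and the 10 nearest tested genes, by the number of genes from ECS1 along chromosome 1. ECS1 lies at -7.17, and its neighbours lie between -1.58 and 0.62.

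Other genes of the cell wall changed in both directions between the parents, with differences smaller than that of ECS1. Of 228 genes chosen by family name, the annotation named 42 and 19 were tested. Of the 19, 4 were higher and 4 lower in C24 and 11 did not pass, with a median log2 difference of -0.13 (all probe sets tested, 0.03), so that 42.1% were called beside 30.9% of all probe sets (15.7% higher and 15.2% lower). The name matches PEX4, a peroxisome biogenesis gene, and PRP39, a splicing factor gene, are not wall genes, and neither was called. The families of fasciclin-like and arabinogalactan proteins had 0 genes named, and those of extensins and of glycine-rich and proline-rich proteins had only these mismatches.

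Expansins loosen the wall during growth. Of 6 tested, EXLB1 and EXPB1 were higher in C24, EXPA4 and EXPB3 were lower, and EXPA8 and EXPA15 did not pass. EXLB1, an expansin-like gene, stood at 610.2, 739.1 and 603.3 in F1, 656.0, 754.5 and 458.3 in C24 and 207.3, 250.1 and 250.9 in Col (C24 against Col 1.37, SE 0.17, adjusted p = 1.69e-05). Its F1 and C24 arrays overlapped and all lay above Col, a pattern with F1 near C24 in a gene higher in C24. EXPA4 stood at 450 ± 64.8 in F1, 450 ± 45.2 in C24 and 646 ± 54.9 in Col (-0.52, adjusted p = 0.00822). EXPB1 was higher by 0.73 and EXPB3 lower by -0.72 in C24.

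The other families gave 4 calls. EXGT-A3, a xyloglucan endotransglucosylase gene whose product cuts and rejoins xyloglucan chains, stood at 1867 ± 128 in F1, 1411 ± 88.9 in C24 and 1871 ± 121 in Col (-0.41, adjusted p = 0.00453), with an F1 position of 0.00953. Pectin methylesterases trim methyl groups from pectin. Among their genes, ATPMEPCRB was higher in C24 in limma (2.32, adjusted p = 0.000100) and PME61 lower (-0.92, adjusted p = 0.00158). ATPMEPCRB had a Col mean of 61.3, below the filter signal of 89.9, and its C24 signals raised the mean that the filter used. CSLC04, a gene for synthesis of the xyloglucan backbone, was the 1 of 6 cellulose synthase and related genes called (0.68, adjusted p = 0.00107).

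For F1 against Col, 3 of the 19 wall genes passed in limma, beside 11.5% of all probe sets (6.37% higher and 5.08% lower): EXLB1 (1.46, adjusted p = 4.08e-05) and ATPMEPCRB (1.31, adjusted p = 0.0231) were higher and EXPA4 was lower (-0.53, adjusted p = 0.0203). Against C24, EXGT-A3 was the 1 gene that passed (0.40, adjusted p = 0.0101), beside 14.3% of all probe sets (7.55% higher and 6.75% lower). Against the mid-parent, EXLB1 was the 1 gene that passed (0.62, adjusted p = 0.0363), beside 3.3% of all probe sets (1.68% higher and 1.62% lower). EXLB1 no longer passed against the mid-parent when any array but C24 replicate 2 or Col replicate 3 was left out (adjusted p = 0.0531 to 0.163, the highest without F1 replicate 2). Nor did it pass with no filter (adjusted p = 0.0618) or without an intensity trend (adjusted p = 0.102). Against Col, ATPMEPCRB no longer passed without Col replicate 1 (adjusted p = 0.0919), Col replicate 2 (adjusted p = 0.103), F1 replicate 1 (adjusted p = 0.0692) or F1 replicate 3 (adjusted p = 0.0598). This call was also lost with no filter (adjusted p = 0.0537) and without an intensity trend (adjusted p = 0.0528). A 60th-percentile filter left ATPMEPCRB out. EXPA4 no longer passed without Col replicate 2 (adjusted p = 0.0747), Col replicate 3 (adjusted p = 0.0658), F1 replicate 1 (adjusted p = 0.0520) or F1 replicate 3 (adjusted p = 0.0808).

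Of 25 defence genes listed because ECS1 was studied in pathogen response, the annotation named 4 and 3 were tested. SAG101, a partner of EDS1 in immune signalling, stood at 145 ± 21.1 in F1, 205 ± 28.9 in C24 and 85.6 ± 15.2 in Col (C24 against Col 1.26, adjusted p = 0.000541), and GRX480, a glutaredoxin gene induced by salicylic acid, at 102 ± 46.9 in F1, 235 ± 35.0 in C24 and 59.0 ± 24.9 in Col (2.07, adjusted p = 0.000589). These are 2 of 3 genes called, both higher in C24, beside 15.7% of all probe sets called higher. Both had Col means below the filter signal of 89.9, and their C24 signals raised the mean that the filter used. The count is therefore a description only. BIK1, a kinase gene of pattern-triggered immunity, differed by -0.12 (adjusted p = 0.780).

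Markers of the labelled tissue were bright. Of 9 rosette leaf markers, 2 were named: LHCB4.2, given above, and RCA, the Rubisco activase gene, at 36793 ± 1791 in F1, 31676 ± 1238 in C24 and 36305 ± 4544 in Col. Of 16 markers of root, seed, flower and meristem, PYK10 and CLV3 were named. PYK10, a marker of root, stood at 1985 ± 143 in F1, 92.0 ± 40.5 in C24 and 2726 ± 219 in Col (C24 against Col -4.98, adjusted p = 2.96e-10), and it is among the genes most like ECS1; the part of root tissue in the ECS1 pattern was not tested. CLV3, a meristem gene, had group means of 21.1 in F1, 4.32 in C24 and 8.78 in Col and was not tested.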

How the data were processed

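Each of the 9 arrays measured biotin-labelled RNA of 1 rosette sample. The intensity values were deposited by the authors as linear MAS5 signals per probe set, per the submitters' processing notes; no source used here gives its version or settings. The mean after trimming 2% at either end was 500.05 on the arrays, so each had been scaled to a common mean, and differences are relative to the rest of the array. An array has no read depth, and precision is limited by the number of arrays.

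Signals were log2-transformed. Probe sets with a mean log2 signal below the 40th percentile (6.49) were left out, and 13648 were tested with limma 3.58.1 in R 4.3.3 (a mean per group over all 9 arrays, eBayes with intensity trend), two-sided, with Benjamini-Hochberg adjustment over all of them and a threshold of 0.05. The mid-parent was the log2 of the mean of both parents' levels, with a delta-method SE. The fit was tested on simulated data. The annotation named 1 gene for 13513 probe sets (13436 matched to RefSeq, TAIR10.1, used for names and gene order only, since no build is named for the probes), several for 503 and none for 8730. ECS1, the lists and the rules for naming genes (nearest neighbours, 10 best correlations, 16-fold higher in Col, list members called) were chosen with earlier results of these data known. A planned search for similar proteins was not run. The p-values set a difference between groups against the spread between these replicate samples.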

Additional observations from a re-analysis of the deposited data

How the results depend on the processing

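The ECS1 values were recomputed with quantile normalization, median centring, log2(signal + 32), the replicate number as a block and each array left out. C24 against Col was -6.89 and F1 against C24 6.87 with log2(signal + 32), since the pseudocount raises the low C24 signal. Against the mean of the parents' logs in place of the log of their mean, F1 stood at 3.57. Leaving out 1 array gave -7.24 to -7.05 for C24 against Col, -0.07 to 0.04 for F1 against Col, 7.03 to 7.22 for F1 against C24, 0.92 to 1.03 for F1 against the mid-parent and a position of -0.0277 to 0.0448; the position stayed on the Col side of 0.5 in these and in the other settings run.

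Counts of probe sets called with 1 array left out were 3348 to 4348 for C24 against Col, 1021 (without Col replicate 2) to 1521 for F1 against Col, 1362 to 1964 for F1 against C24 and 284 (without F1 replicate 3) to 422 for F1 against the mid-parent, with 264 for the last without an intensity trend. The planned neighbours called numbered 0 to 2 with 1 array left out, 1 without an intensity trend and 6 among the nearest tested genes; wall genes called numbered 8 to 10 with 1 array left out and 7 with the 60th-percentile filter. Defence genes called numbered 0 with the 60th-percentile filter, which removed SAG101 and GRX480. With the replicate block the counts were 4471, 1844, 2255 and 595 in the order above and ECS1 against the mid-parent stayed at 0.97. Same-numbered arrays had deviations that correlated at -0.00147 to 0.117, over 0.1 in 4 of 9 pairs, and the labels state no shared batch or day, so the numbers were not used to pair samples. In 16 of 18 cases an array correlated best with its own number in another group. These cases view each of the 9 pairs from both sides, so they are not independent. The 4 counts of probe sets above also rose with the block. Together this is only a hint of pairing, from the data and not from the design.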
